A study of Schizosaccharomyces pombe with 6 samples.

Results

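The transcriptome of untreated fission yeast in exponential growth was read from 3 of the 6 arrays of a study of hydrogen sulfide. Genes were taken where a probe set of the Affymetrix Yeast Genome 2.0 array was annotated to exactly 1 Schizosaccharomyces pombe gene. Of 10928 probe sets, 2917 met this rule, and they stood for 2899 genes, which were ranked by their mean log2 signal with a blank value taken as 0. The study treated the other 3 cultures with 50 µM NaHS, a donor of hydrogen sulfide, and those arrays were not used. The cells were the wild type 972 h-, a haploid strain of the minus mating type with no other allele named, grown in liquid medium to an OD600 of 0.5. According to the series' design, the untreated cultures went through the 30 min at 30 °C without NaHS. Each of the 3 biological repeats was hybridised to its own array. All cultures came from 1 strain, so the spread below is that between cultures and arrays, not between strains.

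Fission yeast is a rod-shaped yeast that grows at its tips, divides by a medial septum and ferments glucose when it is plentiful. A growing cell spends much of its RNA on ribosomes and on the enzymes of glycolysis, while the genes of mating, meiosis and spore formation are largely kept off until nitrogen runs out and cells of opposite mating type meet. An array of this kind reports a brightness for each probe set, on a log2 scale here, so that 1 unit is a doubling of signal. The brightness depends on the probes as well as on the mRNA, so ranks are given as a description of array signal in broad tiers and not as numbers of transcripts.

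The array also carries probe sets for Saccharomyces cerevisiae, and since only S. pombe RNA was hybridised, the 2601 probe sets annotated to that species served as the background. Their median log2 signal was 0.74 and their 99th percentile was 3.78, which was used as the background limit. The S. pombe genes had a median of 9.59, with the middle 50% between 8.56 and 10.77, and 2865 genes (98.8%) lay above the limit. Only 34 genes lay at or below it. The SD between genes was 1.95, which was 15.6 times the median SD of a gene over the 3 arrays (0.125). A blank was listed in 43.6% of the background values and in 0.0800% of those of the S. pombe genes.

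**Figure D1:**
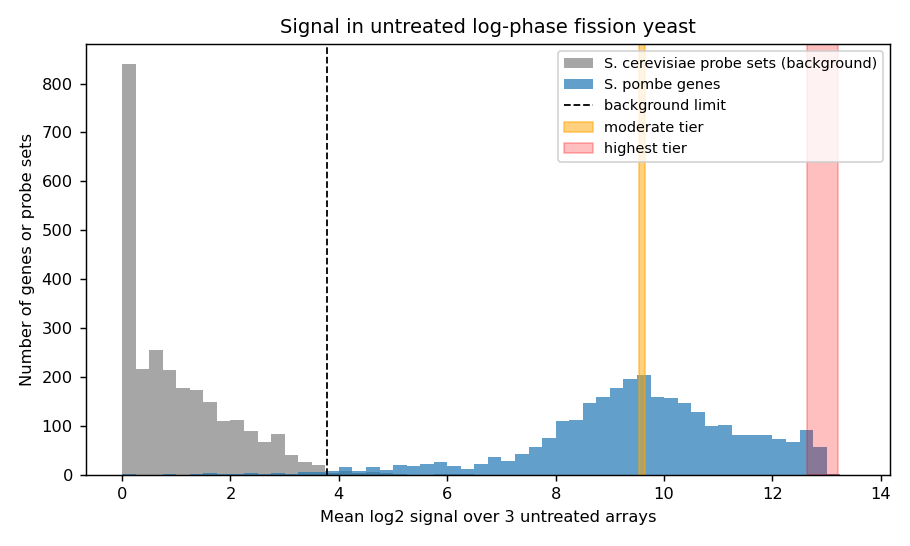
Histogram of the mean log2 signal over the 3 untreated arrays (x axis, bins of 0.25) for the 2899 S. pombe genes in blue and the 2601 S. cerevisiae probe sets in grey, with the number of genes or probe sets on the y axis. The dashed line is the background limit of 3.78, and the shaded bands are the ranges of the moderate tier around the median and of the 100 highest genes. The distributions overlap little, and the genes crowd against an upper edge near 13.

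Before any level is read, it has to be said that replicate 1 stood apart. Across the 2899 genes, Pearson's r was 0.974 between replicates 1 and 2, 0.975 between replicates 1 and 3, and 0.996 between replicates 2 and 3. The median absolute difference was 0.19 and 0.20 for the pairs with replicate 1 and 0.062 for replicates 2 and 3. Replicate 1 was more than 1 unit above both other arrays for 77 genes and more than 1 unit below both for 7, against 6 genes for which replicate 2 and 3 genes for which replicate 3 was off both others by as much. The gene medians of the arrays were nearly the same, at 9.61, 9.61 and 9.59, so replicate 1, as scaled by the array service, was not brighter as a whole. Since replicate 1 is 1 of 3, the tiers were also formed without it: 97 of the 100 highest genes were shared, and all 34 of the barely detected genes stayed at or below the limit, which was then 3.90, with 10 more beside them.

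**Figure D2:**
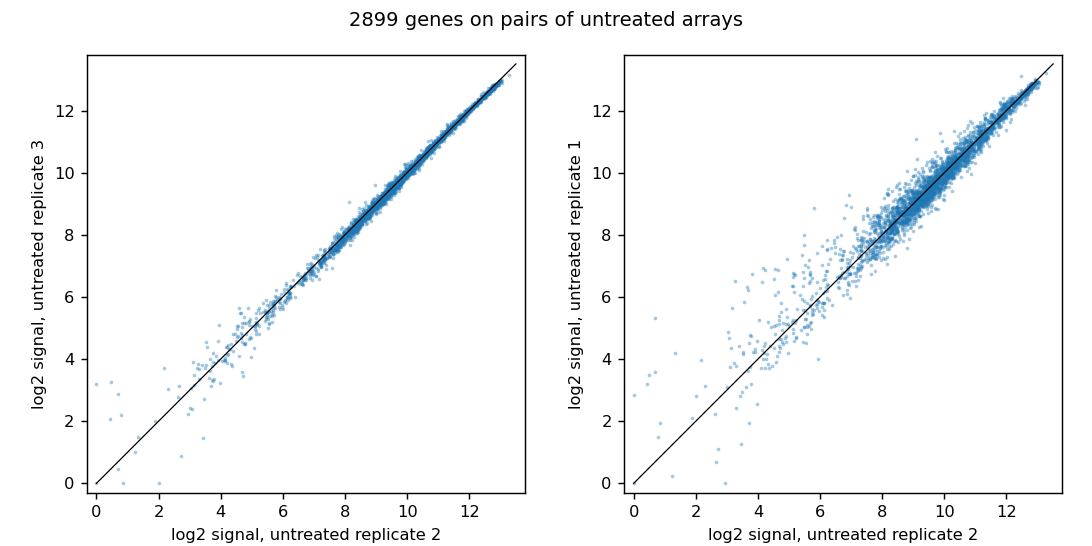
Log2 signal of the 2899 genes on untreated replicates 2 and 3 (left) and on replicates 2 and 1 (right), 1 point per gene, with the line of equal signal. The points of replicate 1 scatter more widely, and between about 3 and 8 many lie above the line. Over the whole range of signal, replicate 1 was more than 1 unit above both other arrays for 77 genes.

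The order of single genes was loose. Of 2898 neighbouring pairs in the ranking, the gap was larger than the larger SD of the pair in only 2. On separate arrays a gene's rank moved over a median range of 102 places, and over 19 places within the 100 highest. The spread depended on the signal. Its median SD was 0.046 for the 291 genes above 12, 0.10 for the 878 between 10 and 12, 0.14 for the 1265 between 8 and 10, 0.21 for the 289 between 6 and 8, 0.31 for the 142 between the limit and 6, and 0.82 for the 34 at or below the limit.

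The 100 genes with the highest signal lay between 12.63 and 13.20, a range of 0.57 units, and 88 of them were among the 100 highest on each of the 3 arrays taken alone. The edge of the tier was not a gap: trx1, coding for thioredoxin, was the lowest member at 12.63 ± 0.089, and ssa2, coding for a cytosolic Hsp70 chaperone, was just outside at 12.63 ± 0.093. Cytoplasmic ribosomal protein genes made up 72 of the 100, while their list held 119 of the 2899 genes. Glycolysis and ethanol fermentation, with 13 of the 2899 genes, gave 8. These were pgk1, pgi1, gpm1, adh1, eno101, pyk1, tpi1 and fba1. Leaving out replicate 1 left these counts at 72 and 8. The other members that belong to any of the 37 gene lists were few. They included sks2 and ssc1 (Hsp70 chaperones of the ribosome and the mitochondrion), act1 (actin), met26 (methionine synthase) and sod1 (Cu,Zn superoxide dismutase). The others were rad24 (a 14-3-3 protein, in the repair and checkpoint list) and wis2 (a cyclophilin that the cell cycle list holds).

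The highest gene of all was rpl4102, coding for the ribosomal protein eL41, with 13.21, 13.27 and 13.13 on replicates 1, 2 and 3. Its gap to the next gene, rps3 at 12.98 ± 0.021, was larger than the SD of either, the only such gap within the tier. The 15 highest genes held 12 ribosomal protein genes, among them rps2502 at 12.97 ± 0.046, rpl2701 at 12.97 ± 0.093, rpl501 at 12.96 ± 0.050, rpp0 at 12.95 ± 0.049, rpl402 at 12.94 ± 0.058, rpl101 at 12.93 ± 0.051, rpl35 at 12.92 ± 0.050, rpl22 at 12.91 ± 0.053, rpl31 at 12.90 ± 0.017 and rpl2301 at 12.90 ± 0.13 (mean ± SD, n = 3). These lay between 12.90 and 12.97 and mostly overlapped on the arrays. Many ribosomal proteins have a pair of gene copies that differ little in sequence, and probes for such copies can share signal. The others of the 15 were ubc4, a ubiquitin-conjugating enzyme, at 12.92, 13.04 and 12.89, egd2, the alpha subunit of the nascent polypeptide-associated complex, at 12.95, 12.92 and 12.90, and pgk1, phosphoglycerate kinase, at 12.93, 12.96 and 12.88. Protein synthesis, the handling of new proteins, ubiquitin and glycolysis were the roles met here.

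Of the 100 highest, 13 were in no list, and all are named here, after their values were seen. They included ubi1, ubi2 and ubi3, which code for ubiquitin fused to ribosomal proteins, at 12.83, 12.68 and 12.89, and tif512, a copy of the translation factor eIF5A, at 12.81. btf3, the beta subunit of the nascent polypeptide-associated complex, was at 12.68, beside egd2, its partner subunit. Nitrogen and sulfur metabolism gave car2 (ornithine aminotransferase) at 12.80, aru1 (arginase) at 12.72 and sir1 (sulfite reductase) at 12.73. The remaining ones were ubc4, pmm1 (phosphomannomutase) at 12.71, mmf1 at 12.65 and trx1.

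The 37 lists were written from gene functions but with earlier results of these data known, so they were not chosen blind to the signals. They held 1230 of the 2899 genes (42.4%), and their medians ran from 12.70 to 5.18. As a description, lists were ordered by that median, beside the median of 9.59 for all genes.

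**Figure D3:**
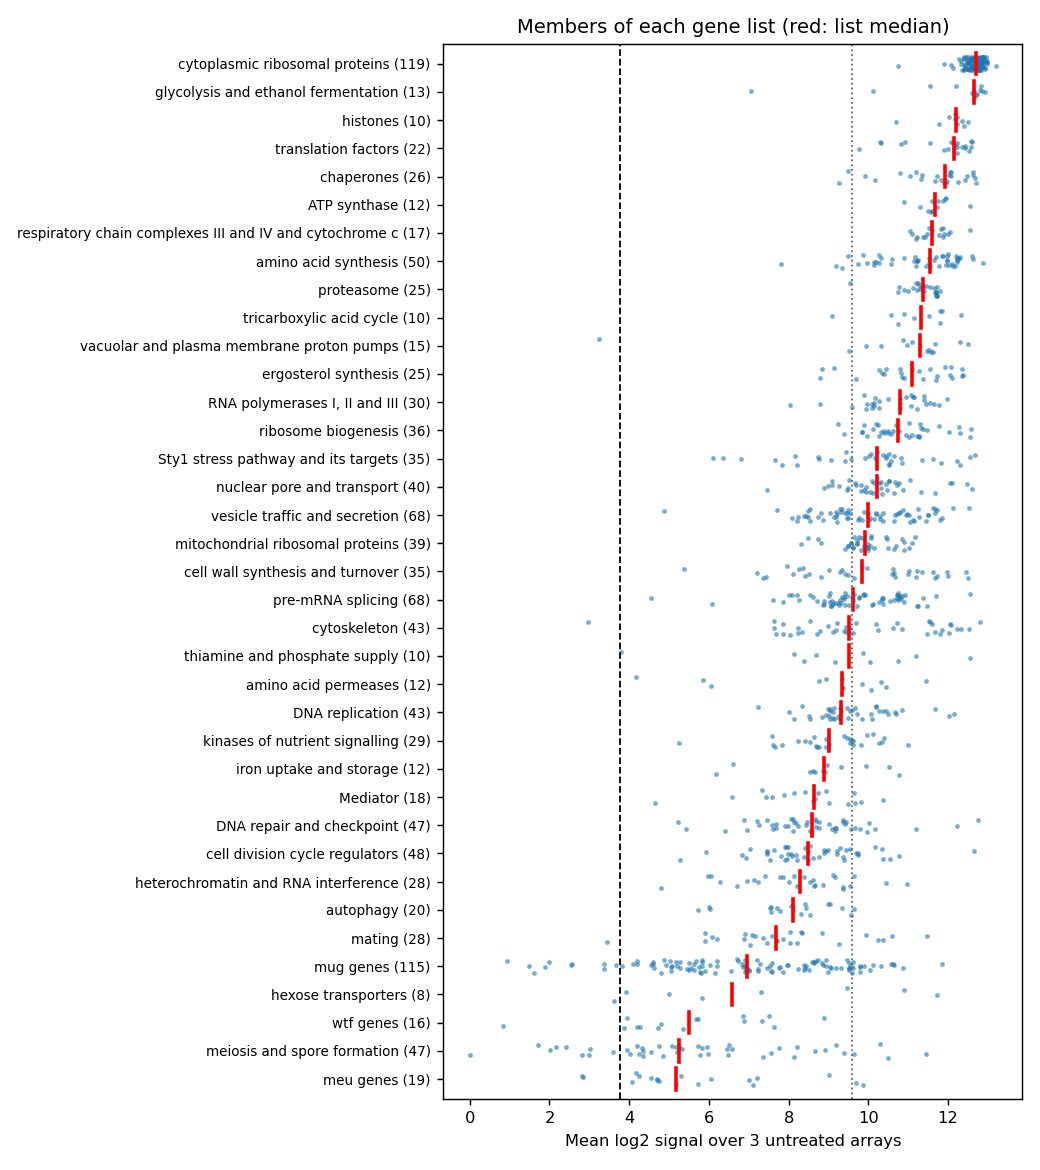
Mean log2 signal over the 3 untreated arrays (x axis) of each member of the 37 gene lists (y axis, number of members in brackets), 1 point per gene, with the list median in red. The dashed line is the background limit and the dotted line the median of all genes. Ribosomal proteins sit together near 12.70, while mug, meiosis and hexose transporter genes are spread over most of the range.

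Protein synthesis led. The 119 cytoplasmic ribosomal protein genes had a median of 12.70. No value on any of the arrays exceeded 13.27, and whether this upper edge narrowed the spread of bright genes was not tested. Of the 119, 118 lay within 1 unit of the median. The one farther off was rpl1603, the third copy for uL13, with 10.75, 10.67 and 10.82. Its related copy rpl1602 was at 12.85, 12.87 and 12.86, so that the signals differed by 2.12 ± 0.077 and did not overlap on any array. The 22 translation factors had a median of 12.16, from tef3, the fungal elongation factor 3, at 12.59 ± 0.031 down to 9.75 for pab1. In fission yeast that gene is known as a regulatory subunit of protein phosphatase 2A and not as the poly(A)-binding protein, and the latter, pabp, was at 12.27. Apart from pab1 the lowest was tif224, a subunit of the exchange factor eIF2B, at 10.28. Initiation factors eIF2 (tif211 at 12.42, tif212 at 12.52) and sui1 (12.35) lay above the subunits of eIF2B (tif223 at 10.91, tif225 at 10.81).

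Making ribosomes gave lower signals than the ribosome itself. The 36 ribosome biogenesis genes had a median of 10.73, and the box C/D and H/ACA ribonucleoproteins, which modify ribosomal RNA, were at its top: cbf5, the pseudouridine synthase, at 12.57 ± 0.023, fib1, fibrillarin, at 12.56 ± 0.015, nop10 at 12.30, gar1 at 12.28 and nhp2 at 12.03. The helicase genes dbp8 at 9.38 and dbp7 at 9.23 were the lowest. The 30 RNA polymerase subunits had a median of 10.78. The 2 highest, rpc40 at 11.97 ± 0.027 and rpc19 at 11.78 ± 0.081, are shared by polymerases I and III, and rpb9, of polymerase II, was the lowest at 8.04 ± 0.46.

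Sugar breakdown was next. The 13 genes of glycolysis and fermentation had a median of 12.66, with 10 of them within 1 unit of it. pgk1 was the highest, and pgi1 (phosphoglucose isomerase) at 12.84, gpm1 (phosphoglycerate mutase) at 12.83, adh1 (alcohol dehydrogenase) at 12.79, eno101 (enolase) at 12.73, pyk1 (pyruvate kinase) at 12.71, tpi1 (triosephosphate isomerase) at 12.66 and fba1 (fructose-bisphosphate aldolase) at 12.65 followed. Hexokinase hxk2, at 12.60, was just outside the highest tier and pfk1 (phosphofructokinase) at 12.21. The list's lowest member was eno102, the second enolase gene, with 7.42, 7.06 and 6.69. The first, eno101, read 12.82, 12.71 and 12.66, and the gap was 5.67 ± 0.29. adh4 and hxk1 were also below their counterparts, by 2.67 ± 0.12 and 1.04 ± 0.28, with no overlap on the arrays.

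Sugar entry was less even. The 8 hexose transporter genes had a median of 6.57 and ran from ght8 at 11.76, 11.74 and 11.67 to ght6 at 3.62, 3.67 and 3.60. Between them were ght2 at 10.89 ± 0.14, ght5, the high-affinity glucose transporter, at 9.45 ± 0.032, ght4 at 7.31 ± 0.18, ght3, a gluconate transporter, at 5.83 ± 0.069, ght1 at 5.01 ± 0.14 and ght7 at 3.93 ± 0.20. Each neighbour in this order was separated by more than the larger SD. ght6 lay below the background limit on all 3 arrays, while ght7 lay below it on replicate 1 alone.

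**Figure D4:**
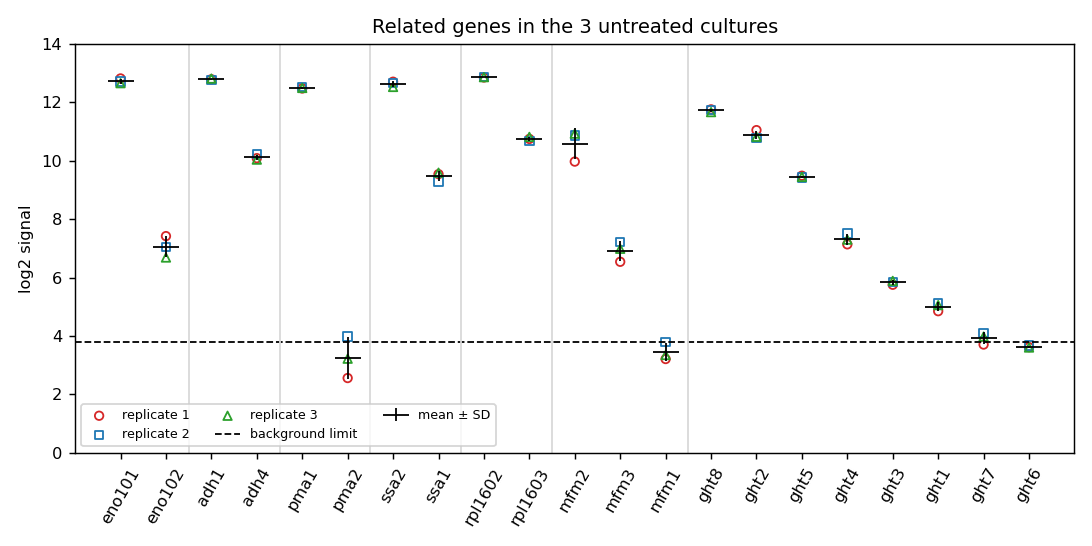
Log2 signal (y axis) of related genes (x axis, families divided by grey lines) on the 3 untreated arrays, with open symbols for replicates and a bar for the mean ± SD (n = 3). Within every family drawn, the first gene lies above the last on all 3 arrays. The dashed line is the background limit, under which pma2, mfm1 and ght6 have their means.

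The genes of respiration were also well above the median of all genes. The 12 ATP synthase genes had a median of 11.66, from atp2 (the beta subunit) at 12.55 to atp14 at 10.90. The 17 genes of complexes III and IV and cytochrome c had a median of 11.58, and all lay within 1 unit of it, from cyc1, cytochrome c itself, at 12.54 to cox8 at 11.03. The 10 genes of the tricarboxylic acid cycle had a median of 11.33, from sdh1 (succinate dehydrogenase) at 12.33 to lsc1 (succinyl-CoA ligase) at 9.08. The genes of the mitochondrial ribosome, which makes the few proteins coded in mitochondrial DNA, were lower. There were 39, with a median of 9.92, from mrp11 at 11.16 to mrpl24 at 8.32.

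Genes for proteins that fold or destroy other proteins mostly gave high signals. The 26 chaperone genes had a median of 11.92, led by sks2 at 12.70 ± 0.021 and ssc1 at 12.67 ± 0.046. hsp90 was at 12.42, mcp60 and hsp10, the chaperonin of the mitochondrion, at 12.25 and 12.47, and git7, an Hsp90 cochaperone, was the lowest at 9.27. Of the cytosolic Hsp70 pair, ssa2 lay above ssa1 by 3.15 ± 0.21. The 25 proteasome genes had a median of 11.36, and 24 lay within 1 unit of it. Their highest was pup1 at 11.80 and their lowest rpt5 at 9.53, a subunit of the base like rpt4 at 11.71.

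The 10 histone genes had a median of 12.20, from hht2, a histone H3 gene, at 12.51 ± 0.12 to pht1, the variant H2A.Z, at 10.68 ± 0.16. The 3 genes for H3 (hht1 at 12.41, hht3 at 12.18) and the 3 for H4 (hhf1 at 12.22, hhf3 at 12.03, hhf2 at 11.78) code for the same or nearly the same protein within each set, and probes for such copies can share signal.

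Genes of biosynthesis lay above the median of all genes. The 50 amino acid synthesis genes had a median of 11.53, with met26 at 12.87 ± 0.020, the branched-chain aminotransferase eca39 at 12.62 and met14, adenylylsulfate kinase, at 12.59 at the top and lys7 at 7.80 ± 0.19 at the bottom. The 25 ergosterol genes had a median of 11.09, from erg5 (a cytochrome P450) at 12.38 to are2 (sterol acyltransferase) at 8.79. Of the proton pumps, pma1, the main H+-ATPase of the plasma membrane, was at 12.48, 12.53 and 12.49, while pma2, a second one, was at 2.56, 3.98 and 3.22, with a mean below the background limit. The vacuolar ATPase ran from vma3 at 12.30 to vma6 at 9.51.

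The moderate tier, the 100 genes nearest the median rank, spanned only 9.54 to 9.65. Their ranks moved over a median range of 191 places between arrays, so membership was not sharp. The 6 at the middle were tho7 at 9.60 ± 0.062, prz1, the calcineurin-dependent transcription factor, at 9.60 ± 0.12, tpp2 at 9.59 ± 0.031, psk1, an S6 kinase, at 9.59 ± 0.10, pmk1, the MAP kinase of cell integrity, at 9.59 ± 0.098, and sap114, a splicing factor, at 9.59 ± 0.074. Of the 100, 30 were in a list, while 42.4% of all 2899 genes were. Among the 30 were 5 genes of the mitochondrial ribosome, 4 mug genes and the nutrient signalling genes ste20, tor1, psk1 and gcn2. These lists held 39, 115 and 29 of the 2899 genes, in that order. The mug genes as a whole lay lower, with a median of 6.96.

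Several lists had medians near that of all genes, besides the mitochondrial ribosome above and the thiamine and phosphate and amino acid permease lists described further on. The 40 nuclear pore and transport genes had a median of 10.21, from spi1, the Ran GTPase, at 12.61 to cut15, importin alpha, at 7.46. The 68 vesicle traffic genes ran from arf1, a GTPase of coat assembly, at 12.54 to gmh1 at 4.86. The 35 cell wall genes had a median of 9.84, and only 12 were within 1 unit of that: gas1, a beta-glucanosyltransferase, was at 12.49 ± 0.027 and mde5, a gene of sporulation, at 5.37 ± 0.12. The glucan synthase bgs4 lay above its relative bgs2, which works in the spore wall, by 3.23 ± 0.47. The 68 splicing genes had a median of 9.61, from srp2, an SR protein, at 12.54 ± 0.017 to lsm8 at 4.54 ± 1.74, which lay below the limit when replicate 1 was left out. The same held for srb10, mis6 and spf1, named below.

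The 43 cytoskeleton genes had a median of 9.52 with only 16 within 1 unit of it. act1 led at 12.82, 12.81 and 12.75, followed by adf1 (cofilin) at 12.52, cdc3 (profilin) at 12.34 and cdc8 (tropomyosin) at 12.23. The tubulins nda3 and nda2 were at 12.05 and 11.60. tea2, a kinesin that carries polarity factors to the tips, was the lowest at 5.33, 0.69 and 2.89, above the background limit on replicate 1 and below it on the others.

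Regulators lay lower. The 43 replication genes had a median of 9.32. The subunits of ribonucleotide reductase, suc22 at 12.15 and cdc22 at 11.68, and pcn1 (PCNA) at 12.02 were far above the rest, and ssb3, the small subunit of the single-strand binding complex, was the lowest at 7.23. The 48 cell cycle regulators had a median of 8.48. Leaving aside wis2, at 12.66, they ran from the mitotic cyclin cdc13 at 10.77 ± 0.29 to clp1, the Cdc14-type phosphatase, at 5.27 ± 1.13. The kinase cdc2 was at 9.74 and its inhibitory kinases wee1 and mik1 at 7.45 and 6.93. In repair the 14-3-3 genes rad24 at 12.75 and rad25 at 12.21 were at the top, and chk1, the checkpoint kinase, at 5.23 and rad52 at 5.42 at the bottom, around a median of 8.60.

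The 18 Mediator subunits, which link transcription factors to polymerase II, had a median of 8.64, from med18 at 10.38 to srb10 at 4.66 ± 1.46. The 28 genes of heterochromatin and RNA interference had a median of 8.30. clr6, a histone deacetylase, was the highest at 10.96, swi6, the HP1 protein, was at 9.63, and clr4, the H3 lysine 9 methyltransferase, and dcr1, Dicer, at 5.97 and 6.05. Its lowest member was mis6, of the centromere, at 4.81 ± 1.68. The 20 autophagy genes had a median of 8.10, from atg5 at 9.63 to atg20 at 5.72. Of the 29 genes of nutrient signalling, the GTPase rhb1, which activates TOR, was the highest at 10.99, tor2, the TOR kinase of growth, was at 10.11 and tor1 at 9.61, and git11, a G protein gamma subunit, was the lowest at 5.24 ± 1.08.

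Nutrient uptake was mixed. The 12 genes of the amino acid permease list had a median of 9.34, from isp4, an oligopeptide transporter, at 11.44 to meu22 at 4.16. The list also held ape4, an aminopeptidase, and vhc1, a vacuolar cation cotransporter, through older symbols of these genes. The 12 iron genes had a median of 8.88, from str1 at 10.76 to the ferric reductase frp2 at 6.18. In the thiamine and phosphate list, nmt1, which is repressed by thiamine, read 3.73, 3.75 and 3.90, the lowest mean above the background limit, and it lay below the limit of 3.90 found without replicate 1. thi4 and thi2, of the same pathway, were at 10.04 and 9.17. pho1, coding for acid phosphatase, was listed at 12.55, but its identifier now belongs to a noncoding RNA at that locus, so its gene is uncertain.

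Several stress genes were bright without treatment. The 35 genes of the Sty1 pathway, the MAP kinase route of the stress response, and of its targets had a median of 10.22. sod1 was at 12.65, 12.68 and 12.70, hsp9, a small heat shock protein, at 12.56, 12.56 and 12.52, the peroxiredoxin tpx1 at 12.31 and glycerol-3-phosphate dehydrogenase gpd1 at 12.22. At the other end were gst1, glutathione S-transferase, at 6.11, fbp1, fructose-1,6-bisphosphatase, at 6.36 and the phosphatase pyp2 at 6.80. The list also held nhe1, a sodium/proton antiporter with the older symbol sod2, at 10.36. The kinase sty1 was at 10.82 and its transcription factor atf1 at 9.44, while atf21, related to atf1, had a mean below the limit, with 3.87, 3.24 and 3.70.

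The cell type markers were read as a check of the label. Of 8 markers of growing cells, all lay between 9.25 (mcm2, of the replicative helicase) and 12.92 (pgk1), with a median of 12.32. Of 6 markers of stationary or stressed cells, the median was 10.31: besides hsp9, ctt1 (catalase) was at 10.67, 10.28 and 10.41, gpx1 (glutathione peroxidase) at 11.83 and ntp1 (trehalase) at 10.16, while fbp1 and tms1 were at 6.36 and 7.65. Of 7 markers of meiosis, ste11, the transcription factor of sexual development, was the only one above 9, at 9.20, 9.24 and 9.35, and mei2 at 6.51, dmc1 at 5.94, mei4 at 5.20, mek1 at 4.84, spo5 at 4.74 and rec8 at 4.24 were lower. Of the growing cell markers, 7 of 8 lay above the median of all genes and mcm2 below it, and 4 of the 6 stress markers lay above it too. Their part in the other levels was not tested.

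The strain is h-, so M-specific genes could be expressed and P-specific genes not. The receptors are named crosswise, and they are given here by their known roles: mam2 is the P-factor receptor on M cells and map3 the M-factor receptor on P cells. The 6 M markers had a median of 7.59, with mfm2, a gene of the M-factor pheromone, at 9.97, 10.87 and 10.93, mam1, the M-factor exporter, at 8.31, sxa2, the peptidase that degrades P-factor, at 8.03, mam2 at 7.14, mfm3 at 6.92 and mfm1 at 3.45. The 5 P markers had a median of 6.88, with sxa1, an aspartic protease, at 11.63, 11.42 and 11.39, map4 at 7.67, map3 at 6.88, map2, the P-factor gene, at 6.07 and map1 at 5.90. The sets overlapped, so these signals did not tell the mating type of the cells. Of the M markers, mfm1 lay at or below the background limit, and 0 of the P markers did.

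The 28 genes of the mating list had a median of 7.69. Apart from sxa1 and mfm2, mam4 (pheromone methyltransferase) at 10.36, byr1 (the MAP kinase kinase of the pheromone pathway) at 10.24 and krp1 (a processing protease) at 9.94 were highest, and fus1 (a formin of cell fusion) at 5.89 was low.

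Sexual differentiation was at the bottom. The 47 genes of meiosis and spore formation had a median of 5.26, the 19 meu genes, which are named for being raised in meiosis, 5.18, and the 115 mug genes, named the same way, 6.96. Together these lists held 178 of the 2899 genes, and 20 of the 34 barely detected genes were among them. Over all 2899 genes, the barely detected share was 1.2%. The lists were not dark as a whole. spo20, a phosphatidylinositol transfer protein, was at 11.45 ± 0.047, spo14, of vesicle formation, at 10.49 and spo15, of the spindle pole body, at 10.30, and spo20 and spo14 are known to act in growing cells as well. Among mug genes, mug64 was at 11.86 ± 0.038 and mug93 at 0.93 ± 0.97. Among meu genes the range went from meu29 at 9.87 to meu10, of the spore wall, at 2.82. The 16 wtf genes, spore killers that form a family of close copies, had a median of 5.51, from wtf14 at 8.88 to wtf3 at 0.83, and probes for such copies can share signal.

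The 34 barely detected genes ran from 3.66 to 0. Just above the limit were nmt1 and mug68 at 3.83, and just below it mug28 at 3.66 and apc13, a subunit of the anaphase-promoting complex, at 3.66. The lowest gene, moa1, which directs the centromeres of sister chromatids to 1 pole in meiosis I, was blank on all 3 arrays. wtf3 read 0.23, 1.25 and 1.02 and mug93 1.93, 0.86 and 0.00, the last of these a blank. mug27, a meiotic kinase, read 1.49, 0.78 and 2.21, mde7 1.09, 2.71 and 0.90, mug116 3.20, 0.42 and 2.07 and mug96 2.10, 1.88 and 2.01. spo4, a kinase of meiosis, was blank on replicate 1 and read 0.00, 2.93 and 2.22, and fzr3, of the Fizzy-related family, was blank on replicate 3 and had a mean of 1.61 ± 1.45. mei3, which switches on meiosis by inhibiting Pat1, was blank on replicate 2 and read 2.86, 0.00 and 3.21. These values have no order among themselves: 13 of the 34 had an SD above 1.

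rec8, the cohesin of meiosis, read 4.76, 3.76 and 4.21, and rad21, the cohesin of mitosis, 9.18, 8.59 and 8.50. rem1, the meiotic cyclin, had a mean of 2.16, below the background limit, beside 10.77 for cdc13.

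Outside the lists the barely detected tier held 9 genes, named here after their values were seen. They were apc13, the transcription factors atf21, cuf2 and rsv1 at 3.59 and 2.48 for the last pair, the meiosis-dependent mde3 at 3.38 and mde7 at 1.57, grt1 at 3.28, dad5 at 2.35 ± 1.61 and pol4, a DNA polymerase of repair, at 3.58, 0.69 and 0.46. Replicate 1 was above the limit for apc13, dad5 and atf21, and the other arrays were below it. From the remaining lists came tea2, pma2, ght6 and mfm1.

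The 8 genes above the background with the largest SD were lsm8 at 6.53, 3.27 and 3.83, mis6 at 6.75, 3.81 and 3.87, fhn1 at 8.86, 5.79 and 6.21, spt3 (of the SAGA coactivator) at 6.92, 4.15 and 3.98, spf1 at 6.23, 3.68 and 3.15, pef1 (a cyclin-dependent kinase) at 7.99, 5.48 and 5.34, srb10 at 6.33, 3.64 and 3.99 and mug72 at 6.87, 4.22 and 4.47. In every one of these 8 replicate 1 was the high array, and the other arrays lay closer to each other than to it. The limit was applied to a mean that included replicate 1, which favours such genes. Without replicate 1, lsm8, mis6, spf1 and srb10 lay at or below the limit, which was then 3.90. Above the background limit, replicate 1 exceeded both other arrays by more than 1 unit for 70 genes, and their median mean was 6.64. It lay below both by more than 1 unit for 3. git11 went the other way, at 3.99, 5.92 and 5.81.

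Over all genes, 46.8% lay below both other arrays on replicate 1 and 42.3% above both, with a median difference of −0.01. By list, the difference was taken per gene, as replicate 1 minus the mean of replicates 2 and 3, and its median was given. The mitochondrial ribosomal genes had the lowest median, −0.26, and 34 of 39 lay below both other arrays. Meiosis and spore formation followed at −0.20 with 28 of 47 below both, mating at −0.18 with 18 of 28 and the wtf genes at −0.18 with 11 of 16. Histone genes were at −0.17 with 10 of 10 below both, and the genes of complexes III and IV at −0.17 with 14 of 17. The other way were the nutrient signalling list at 0.13 with 18 of 29 above both, the amino acid permeases at 0.11 with 6 of 12 and amino acid synthesis at 0.10 with 33 of 50. Between replicates 2 and 3, the median of the differences per gene was within 0.10 of 0 in each of the 37 lists. These are differences between single cultures, each on its own array. Culture and array cannot be told apart as their source, which was not tested.

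**Figure D5:**
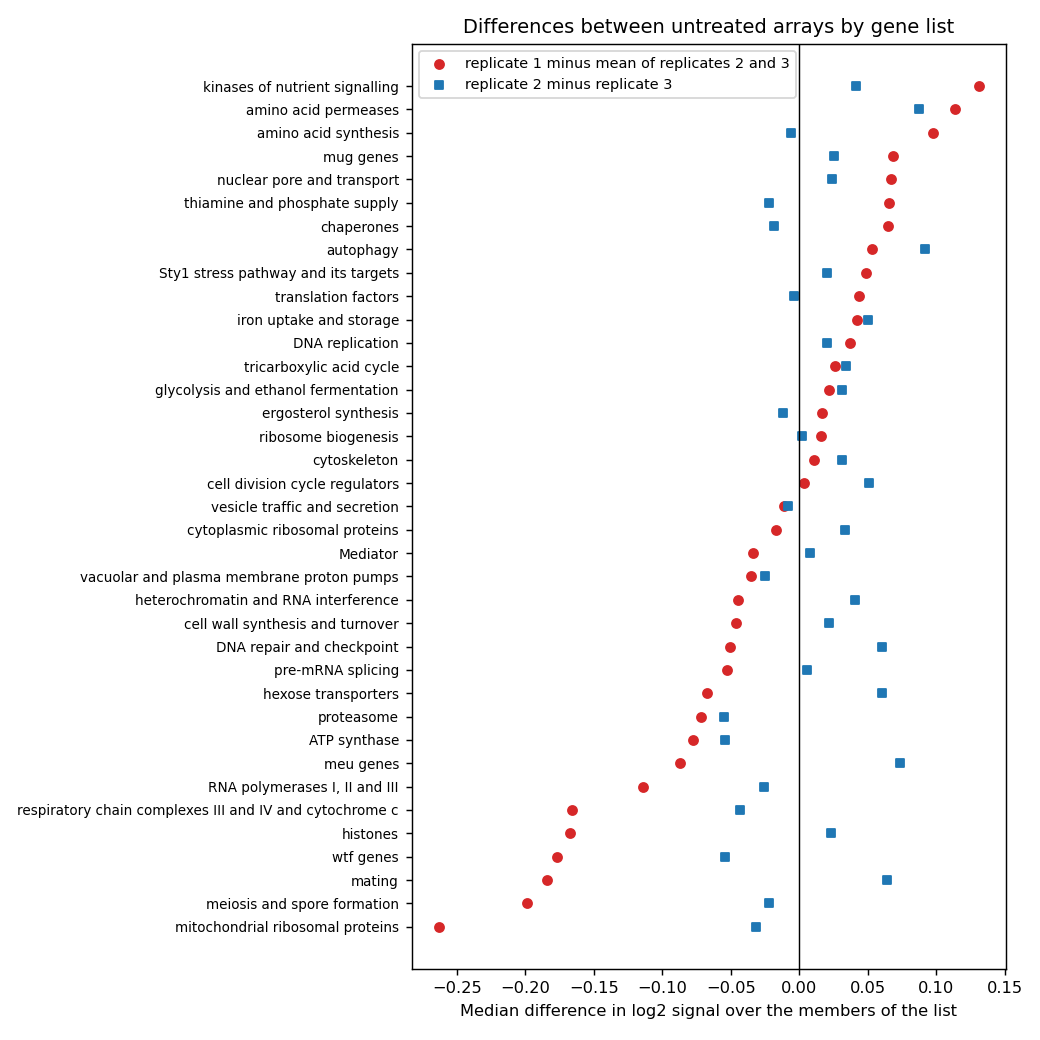
Median difference in log2 signal over the members of each of the 37 gene lists (x axis), for replicate 1 minus the mean of replicates 2 and 3 (red circles) and for replicate 2 minus replicate 3 (blue squares). Mitochondrial ribosomal genes lie farthest to the left, with a median 0.26 below on replicate 1, and nutrient signalling farthest to the right at 0.13.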

How the data were processed

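Total RNA was extracted by a hot phenol method, and biotin-labelled cRNA was hybridised to 1 array per culture. What the authors deposited is 1 log2 signal for each probe set and array, which Shanghai Biochip, an array service, had made with MAS5. Its version, the scaling target and the genome build were not given in the sources used here. MAS5 scales each array and keeps no read depth, so the number of arrays limits the precision. All 3 columns of NaHS cultures were left out. Groups came from the labels. Blank values were set to 0 (also tried: leaving them out). Probe sets were named from the platform annotation, and 2896 of 2899 genes were found in the RefSeq gene table, which was used for names only. Where a gene had several probe sets (14 genes), the highest mean was used. Tiers were the 100 highest genes, the 100 nearest the median rank and the genes not above the 99th percentile of the background probe sets.

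No test was run, since no groups were compared. The genes named were the 15 highest, the 10 lowest, the 6 nearest the median rank, the highest and lowest of each list, the 8 with the largest SD above the background limit and the markers, and others were named after their values were seen. In the marker lists as first written, mam2 and map3 stood under the other mating type, and they were exchanged after the data were seen. The gene lists and members were chosen with earlier results of these data known. Scripts ran on Python 3.11.15, NumPy 2.4.6, pandas 2.3.3 and matplotlib 3.10.9, and the ranking was tested on simulated data. Alternatives were quantile normalization, another background limit, linear means, other treatments of blanks and of several probe sets, and leaving out each array. Promoter sequences were not analysed here.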

Additional observations from a re-analysis of the deposited data

Results flagged for a closer look

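Signal was also seen outside the 2899 genes. Of 5224 probe sets with no gene listed, 2030 had a mean above the background limit, with a median of 9.40 among them, and 11 of these lay above the 100th gene. The ranking therefore covers only genes with a name in the platform annotation.

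Probe sets annotated to several S. pombe genes were left out of the ranking. Their highest mean log2 signal was 13.07, for the pair rpl1002 and rpl1001, and 6 of the 20 lay above the 100th gene, among them those for the elongation factors EF-1 alpha and EF-2.

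The S. cerevisiae probe set with the highest mean was that for TPI1, at 6.27, and 26 of 2601 lay above the limit by its definition. Those for ACT1 and PGK1 were at 6.15 and 5.76, and the S. pombe genes of the same names or function, tpi1, act1 and pgk1, were at 12.66, 12.80 and 12.92.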

How the results depend on the processing

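The number of genes above the background limit was 2865 and ran from 2855 to 2880 over the alternatives run: 2880 with the 95th percentile as the limit, 2865 after quantile normalization, 2857 with blanks left out, 2866 with linear means, and 2855 to 2865 when 1 array was left out. Of the 100 highest genes, 97 to 98 were shared when 1 array was left out. List medians moved by more than 1 SD of their array medians for 6 of 37 lists without replicate 1. The same held for 4 lists without replicate 2 and 5 without replicate 3. Without replicate 1 these included the cell wall genes, from 9.84 to 9.99, and complexes III and IV, from 11.58 to 11.72. The amino acid permeases went from 9.34 to 9.15, which was within 1 SD of their array medians. Taking only genes above the limit moved 6 lists, the hexose transporters from 6.57 to 7.31, and averaging probe sets moved the wtf genes from 5.51 to 5.06. Without replicate 1 the limit itself was 3.90, and 10 more genes lay at or below it: mis6, srb10, lsm8, spf1, crp79, exo5, rec24, wtf16, mug68 and nmt1. Different probe sets of 1 gene can disagree: those of mae1 spanned 7.63 units. The promoter motif shares planned for the tiers were not run, as no promoter sequence was used here. With mam2 and map3 under the mating types first written, the medians were 7.47 for M and 7.14 for P markers. No paired analysis was possible because no groups were compared and no result comes from a test.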
